A study of Schizosaccharomyces pombe with 10 samples.

Results

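Low phosphate was compared with high phosphate in the NoIP libraries of a fission yeast (Schizosaccharomyces pombe) chromatin immunoprecipitation sequencing (ChIP-seq) series, that is, in the libraries made without tagged myosin. These were 4 of the 10 libraries of the series, 2 NoIP LP libraries (low phosphate, YES LowPi medium) and 2 NoIP HP libraries (high phosphate, YES, a rich medium), and they were chosen by their labels alone. The other 6 libraries came from cells in which the class I myosin Myo1 carried green fluorescent protein (GFP), 3 in each medium. The labels call the NoIP strain wild-type and name no tagged or deleted gene in it. All 4 cultures spent 4 h in their medium at 30°C, were adjusted to 0.5 OD per ml and were fixed with 3% formaldehyde for 30 min. The labels carry the same protocol text, with GFP-binding beads, for every library, so whether NoIP means a pulldown from untagged cells or sonicated chromatin without a pulldown is not settled by the labels. Which read length and instrument served which library is not given in the sources used here. The question put to these libraries was where along the chromosomes the signal of chromatin without tagged myosin differed between the media.

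As background, sonicated chromatin fixed with formaldehyde is known to be recovered unevenly along a genome, in particular at open promoters. In budding yeast, heavily transcribed genes, among them glycolytic and tRNA genes, are known for high background in ChIP-seq. Phosphate itself is taken up in fission yeast through the transporter Pho84 after the secreted acid phosphatase Pho1 frees it from organic compounds, and the transcription factor Pho7 drives both genes.

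The deposited table gives a scaled read signal for 200 bp windows placed every 100 bp. Of 125720 windows on chromosomes I, II and III, 125708 were above 0 in at least 2 of the 4 libraries and were kept. Every value below is a log2 signal with the library's median window set to 0, and a gene's value is the mean over the windows that the table gives to its gene ID (6073 gene IDs). If the smallest step of the signal is 1 read, the median window held 135 and 260 reads in the NoIP LP libraries, against 64 and 271 in the NoIP HP libraries, so NoIP HP replicate 1 was the shallowest. The SD over windows was 0.546 and 0.449 in the NoIP LP libraries, against 0.614 and 0.397 in the NoIP HP libraries, so that shallow library also spread most. Across windows the NoIP LP libraries correlated with each other at r = 0.911 and the NoIP HP libraries at r = 0.789, and the pairs that crossed the media lay between 0.628 and 0.758. These correlations are across windows of the same genome, which are not independent replicates. Nothing states that replicates were separate cultures, so p-values measure the spread between these libraries, which may be technical. With 2 libraries against 2 there are 6 arrangements, and an exact two-sided permutation test cannot go below p = 0.333. All tests therefore come from limma, which pools the spread over all features.

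At gene level, 156 of 6073 gene IDs passed limma at a Benjamini-Hochberg adjusted p under 0.05, 134 higher in NoIP LP (2.21% of gene IDs) and 22 lower (0.362%). The gene IDs that fell included Hsp70 and Hsp90 chaperone genes, the glycolytic gene pgk1, and the septum glucanase gene eng1. Those that rose included gdh2, for the NAD-dependent glutamate dehydrogenase, and mostly non-coding RNA and dubious gene IDs. The number of calls depended on single libraries: it was 0 without NoIP LP replicate 1 (537 gene IDs had an unadjusted p under 0.05), 1 without NoIP LP replicate 2, 30 without NoIP HP replicate 1 and 629 without NoIP HP replicate 2.

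The stretches just before 4 of the genes whose signal fell are shown here, because the signal before the start and the signal over the gene behaved differently at several of them and because 2 known types of promoter motif occur among the fallen genes. Each is the 300 bases before the RefSeq gene start, written 5′ to 3′ on the gene's strand, with coordinates of build ASM294v3. The chromosome lengths of that build equal the last window ends in the deposited table, whose build is ASM294v2. Capitals mark GAANNTTC or TTCNNGAA in ssa2 and hsp90 (adjoining inverted units of the kind heat shock factor binds) and ACGCGT in cdc22 (the MluI cell cycle box). The stretch of pgk1 holds none of these letters.
ssa2, chromosome III:2056743-2057042, plus strand: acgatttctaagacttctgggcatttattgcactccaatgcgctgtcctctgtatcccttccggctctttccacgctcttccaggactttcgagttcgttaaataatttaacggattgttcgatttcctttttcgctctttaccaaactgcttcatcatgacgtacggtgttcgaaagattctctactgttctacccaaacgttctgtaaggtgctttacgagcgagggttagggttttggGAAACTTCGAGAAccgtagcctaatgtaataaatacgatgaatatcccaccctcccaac
hsp90, chromosome I:3891140-3891439, minus strand: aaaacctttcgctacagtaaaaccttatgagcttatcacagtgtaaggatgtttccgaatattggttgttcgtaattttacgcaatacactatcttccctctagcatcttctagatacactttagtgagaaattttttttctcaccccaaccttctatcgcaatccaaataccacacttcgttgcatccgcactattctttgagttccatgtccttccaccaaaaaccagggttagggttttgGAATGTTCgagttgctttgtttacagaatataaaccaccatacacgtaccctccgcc
pgk1, chromosome II:4159462-4159761, minus strand: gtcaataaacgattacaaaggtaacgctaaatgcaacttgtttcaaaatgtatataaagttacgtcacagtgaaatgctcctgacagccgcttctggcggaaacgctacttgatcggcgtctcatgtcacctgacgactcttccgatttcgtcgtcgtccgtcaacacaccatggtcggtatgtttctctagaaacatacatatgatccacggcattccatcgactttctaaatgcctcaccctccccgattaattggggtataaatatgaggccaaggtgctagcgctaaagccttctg
cdc22, chromosome I:4226670-4226969, plus strand: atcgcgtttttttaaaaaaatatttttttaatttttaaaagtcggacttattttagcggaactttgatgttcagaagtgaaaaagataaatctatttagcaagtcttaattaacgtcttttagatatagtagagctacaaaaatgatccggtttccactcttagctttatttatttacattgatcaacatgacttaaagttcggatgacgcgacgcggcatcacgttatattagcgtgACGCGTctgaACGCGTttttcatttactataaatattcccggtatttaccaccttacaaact

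Each motif was searched on both strands in the same 300 bases of 4727 protein-coding genes. GAANNTTC or TTCNNGAA stood before 19.1% of them and ACGCGT before 2.77%. Among the 19 fallen protein-coding genes, 7 held the heat shock letters and 2 held ACGCGT (cdc22 and tos4). In the ssa2 stretch the heat shock matches overlap and begin 59 and 54 bases before the gene start, and in the hsp90 stretch the match begins 57 bases before it. Both stretches carry the same run of 16 bases, agggttagggttttgg, which was found before no other gene of the 4727. It begins 75 bases before the start in ssa2, where it ends just ahead of the matches, and 72 bases before the start in hsp90, where its last base is the first of the match. The motifs were chosen after the fallen genes had been seen. A match is a description of the letters and shows no binding.

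Of the genes that fell, ssa2 (SPCC1739.13, chromosome III:2057043-2059331, a cytosolic Hsp70 chaperone) changed most. Its signal was 0.59 and 0.24 in the NoIP LP libraries, against 2.10 and 1.72 in the NoIP HP libraries. Both NoIP HP libraries thus had ssa2 far above the median window, and both NoIP LP libraries had it much nearer to that level. The change was -1.50 ± 0.20 (limma SE, adjusted p = 0.0284), which is 0.354 of the NoIP HP signal. The gene hsp90 (SPAC926.04c, chromosome I:3888558-3891139, the Hsp90 chaperone) had 0.61 and 0.26 in NoIP LP, against 1.93 and 1.63 in NoIP HP, a change of -1.34 ± 0.19 (adjusted p = 0.0312). A further 3 chaperone or co-chaperone genes fell with smaller changes: mas5, for a DNAJ partner of Hsp70, wos2, for the p23 partner of Hsp90, and aha1, which activates the Hsp90 ATPase in budding yeast. Their changes were -0.76 ± 0.11, -0.74 ± 0.10 and -0.51 ± 0.09. The aha1 gene lies outside the 12 named by size and was picked after its value was seen.

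The fall at hsp90 ran on past the end of the gene. rlc1 (SPAC926.03, chromosome I:3887262-3888497), for the regulatory light chain of myosin II, ends 60 bp from the end of hsp90 and reads towards it. Its signal was 0.15 and 0.07 in NoIP LP, against 0.86 and 0.85 in NoIP HP (change -0.75 ± 0.10, adjusted p = 0.0274). Fallen windows formed a single run from I:3888001 to I:3891000 (ASM294v2) that covered hsp90 and the end of rlc1, with the greatest change of -1.76 ± 0.25 in the window I:3890201-3890400, 838 bp inside hsp90. Signal carries no strand, and how much of the rlc1 value comes from hsp90 was not tested.

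pgk1 (SPBC14F5.04c, chromosome II:4157821-4159461, phosphoglycerate kinase of glycolysis) had a signal of 0.67 and 0.30 in NoIP LP, against 1.89 and 1.49 in NoIP HP. The change was -1.20 ± 0.20 (adjusted p = 0.0445). pgk1 also showed a switch of sign at its own start. Its fallen windows ran from II:4157601 to II:4159400, with a change of -1.67 ± 0.27 in the window 760 bp inside the gene. Beyond a gap of 200 bp, windows that rose ran from II:4159601 to II:4160300, and the window 540 bp before the pgk1 start had 1.65 and 1.25 in NoIP LP, against -0.61 and -0.51 in NoIP HP (change 2.01 ± 0.18, adjusted p = 0.0111).

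A pair of genes for enzymes that act on cell wall polymers also fell. eng1 (SPAC821.09, chromosome I:998632-1002361), for the endoglucanase that cuts beta-1,3-glucan of the septum, had -0.15 and -0.26 in NoIP LP, against 0.80 and 0.74 in NoIP HP (change -0.97 ± 0.10, adjusted p = 0.0199). The media were thus far apart at eng1 and the replicates close. cts2, for a predicted chitinase, had -0.20 and -0.30 in NoIP LP, against 0.74 and 0.60 in NoIP HP (change -0.93 ± 0.10).

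cdc22 (SPAC1F7.05, chromosome I:4226970-4229989), for the large subunit of ribonucleotide reductase and a known target of the MBF cell cycle factor, had -0.21 and -0.33 in NoIP LP, against 0.65 and 0.62 in NoIP HP. Its change was -0.91 ± 0.09 (adjusted p = 0.0199). tos4, for an FHA domain protein, had -0.16 and -0.26 in NoIP LP, against 0.56 and 0.43 in NoIP HP (change -0.70 ± 0.10). Both genes thus lay below the median window in NoIP LP and above it in NoIP HP. slp1, for the activator of the anaphase-promoting complex, was also called (-0.62 ± 0.11), and it lies 996 bp from eng1 on the opposite strand. The last named pair of fallen gene IDs, the sequence orphan SPCC1884.01 and the antisense RNA SPNCRNA.1096, share 1131 bp near the end of chromosome III. SPCC1884.01 had -1.11 and -1.12 in NoIP LP, against -0.38 and -0.59 in NoIP HP, below the median window in every library.

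**Figure D1:**
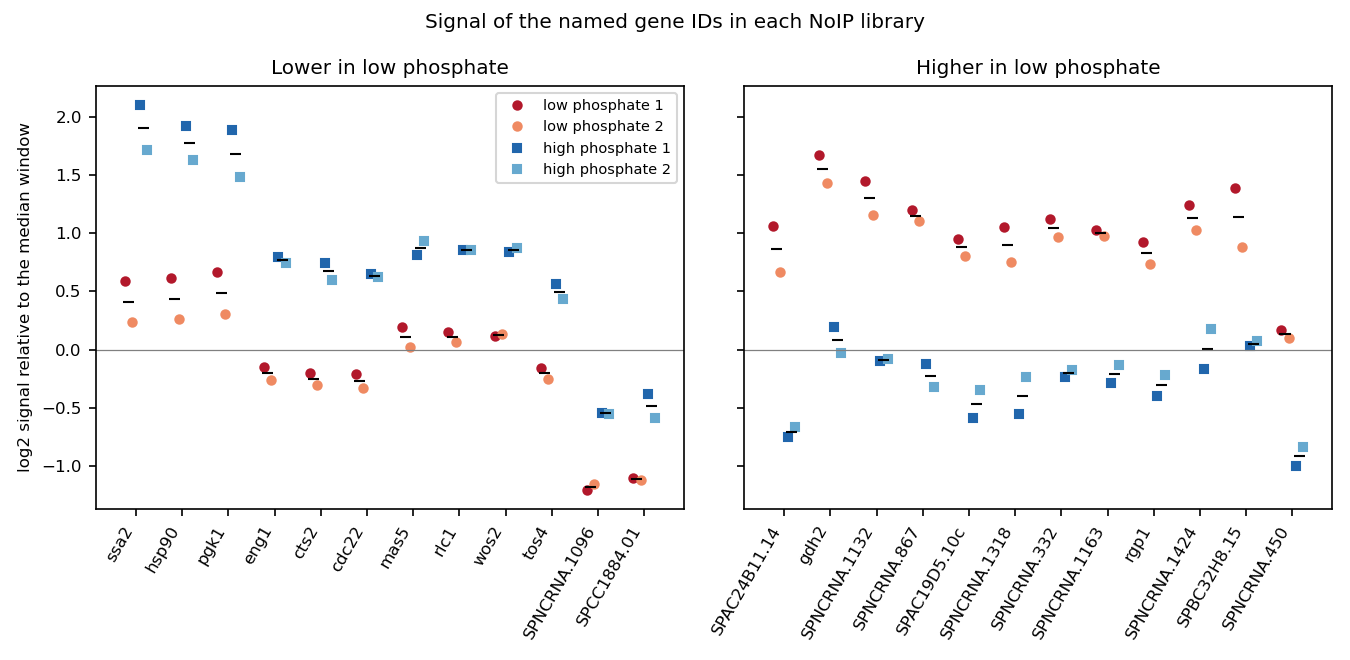
Log2 signal relative to the median window (vertical axis) of the 12 gene IDs with the greatest fall and the 12 with the greatest rise among those past the threshold, in each NoIP LP library (red circles) and NoIP HP library (blue squares), with black bars for the group means. Only gene IDs with at least 3 windows and no overlap of the media were taken, so the lack of overlap is part of the choice. ssa2, hsp90 and pgk1 lie between 0.24 and 0.67 in NoIP LP and between 1.49 and 2.10 in NoIP HP.

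On the other side, gdh2 (SPCC132.04c, chromosome III:1332569-1336175) was the protein-coding gene with the greatest rise among those with at least 3 windows. It had 1.67 and 1.43 in NoIP LP, against 0.19 and -0.03 in NoIP HP. The gene thus stood well above the median window in NoIP LP and at its level in NoIP HP. The change was 1.48 ± 0.15 (2.78-fold, adjusted p = 0.0199). Over the gdh2 body the median of the 36 windows was 1.77 and 1.48 in NoIP LP, against 0.23 and -0.02 in NoIP HP. rgp1 (SPBC23E6.08, described in the table as the Golgi exchange factor subunit Sat1) was the other protein-coding gene among the 12 named, with 0.93 and 0.74 in NoIP LP, against -0.40 and -0.22 in NoIP HP (change 1.14 ± 0.12). The table gives it 11 windows only, and the start of rfc1 lies 197 bp from it.

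The other 10 named gene IDs that rose were RNAs or dubious reading frames, and the annotated span of several came close to the start of a protein-coding gene. Distances are measured from the ends of these spans, not from the windows. The dubious frame SPAC24B11.14 (chromosome I:230545-231136) had 1.06 and 0.67 in NoIP LP, against -0.75 and -0.66 in NoIP HP (change 1.57 ± 0.14, adjusted p = 0.0157), and it lies 58 bp from the start of hem3, for porphobilinogen deaminase of haem synthesis. The antisense RNA SPNCRNA.1132 had 1.45 and 1.15 in NoIP LP, against -0.10 and -0.08 in NoIP HP (change 1.39 ± 0.13). Its annotated span (III:342960-346745) comes within 95 bp of the start of dis1, for a microtubule-associated protein. The deposited table gives it 5 windows only, so its signal may come from elsewhere in that span. SPNCRNA.332 had 1.13 and 0.97 in NoIP LP, against -0.23 and -0.17 in NoIP HP (change 1.25 ± 0.11), 64 bp from the start of erg1, for squalene epoxidase. SPNCRNA.1318 overlaps the start of ght4, for a hexose transporter, and SPAC19D5.10c that of din1. Their changes were 1.30 ± 0.15 and 1.35 ± 0.12. SPNCRNA.867, SPNCRNA.1163, SPNCRNA.1424, SPBC32H8.15 and SPNCRNA.450 rose by between 1.06 and 1.38. Closeness to a start was not particular to the RNAs that rose, however. Of the 92 risen RNA and dubious gene IDs with a RefSeq position, 78.3% lay within 500 bp of the start of a protein-coding gene, against 77.3% of all 1066.

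Altogether, 37 protein-coding genes rose, and 7 of them outside the rule for named genes are given here, picked after their values were seen. SPBC19C7.04c had 1.60 and 1.39 in NoIP LP, against 0.49 and 0.52 in NoIP HP. The cyclin gene pas1 had 1.78 and 1.53 in NoIP LP, against 0.75 and 0.59 in NoIP HP. Enzyme genes among them were eno102, for an enolase, lys3, of lysine synthesis, and mae2, for malic enzyme, with changes of 0.89 ± 0.13, 0.85 ± 0.13 and 0.80 ± 0.14. The lifespan factor gene ecl1 rose by 0.73 ± 0.09, and ste11, for the transcription factor of mating and meiosis, rose by 0.63 ± 0.11. The 38 windows given to ecl1 reach well beyond its RefSeq span (III:2354968-2355787), so its value is not that of the gene alone.

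At the resolution of single windows, 2902 of 125708 windows were higher in NoIP LP (2.31%) and 368 lower (0.293%). Windows of the same direction that touched formed 802 risen and 59 fallen regions. The number of called windows, 3270 in all, was 0 without NoIP LP replicate 1, 296 without NoIP LP replicate 2, 7708 without NoIP HP replicate 1 and 30232 without NoIP HP replicate 2. Apart from the ura4 locus described below, the regions of greatest fall were those of ssa2 (III:2057301-2059800, 24 windows, -1.98 ± 0.28 at its strongest window), hsp90, pgk1 and eng1 (I:998901-1002200, 32 windows, -1.45 ± 0.20), so that each ran along most of a gene. The regions of greatest rise were short. The window of greatest rise lay in SPNCRNA.1424 (II:1265601-1265800) and had 1.63 and 1.37 in NoIP LP, against -1.19 and -0.03 in NoIP HP, a change of 2.11 ± 0.32 in which the NoIP HP libraries stood far apart. The next was III:762901-763100, 377 bp before the start of oca2, a kinase gene, with 1.57 and 1.02 in NoIP LP, against -1.09 and -0.50 in NoIP HP (change 2.09 ± 0.24). After these and the window before pgk1 given above, the regions at I:1906001-1906700, before ppk1, and at I:3993301-3993900, before SPAPB15E9.06 and SPAPB15E9.02c, followed with 1.96 ± 0.21 and 1.91 ± 0.27. Windows without a gene ID were called higher in 6.84% of cases, and protein-coding windows in 1.27%, beside the 2.31% of all windows.

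**Figure D2:**
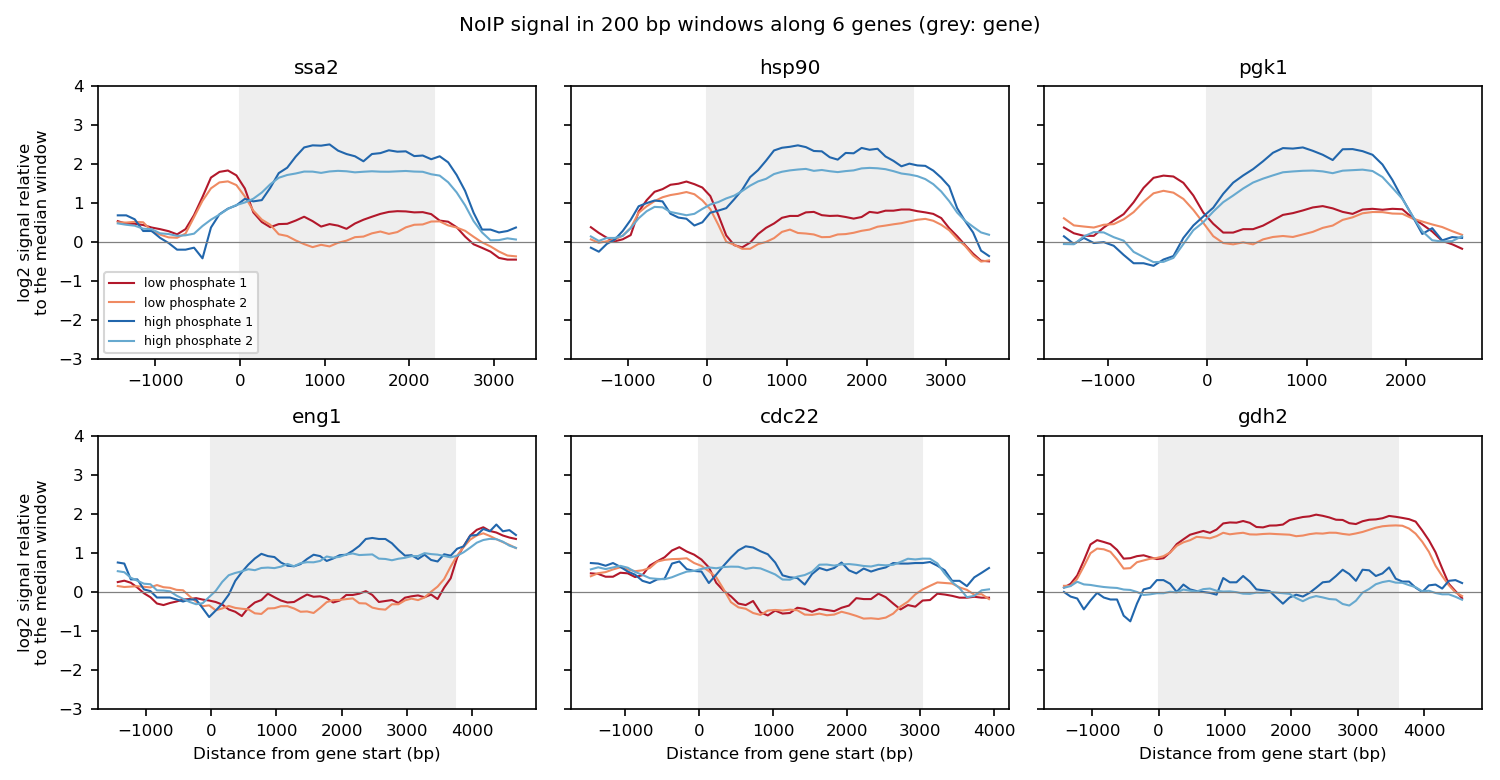
Log2 signal relative to the median window (vertical axis) in 200 bp windows against distance from the gene start in bp, for ssa2, hsp90, pgk1, eng1, cdc22 and gdh2, with NoIP LP libraries in red, NoIP HP libraries in blue and the gene shaded grey. Over most of the bodies of the first 5 genes both NoIP HP lines run above both NoIP LP lines, and before the starts of ssa2, hsp90 and pgk1 the order is the other way round. Over the body of gdh2 the median window is higher in both NoIP LP libraries.

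To follow the switch at gene starts, the mean signal of the 300 bp before the start was compared with that of the gene body in 4727 protein-coding genes. The difference between them (upstream minus body) rose in NoIP LP in 978 genes (20.7%) and fell in 30 (0.635%). Its median over all genes was -0.04 and 0.03 in the NoIP LP libraries, against -0.26 and -0.16 in the NoIP HP libraries. The median gene thus had a dip before its start in high phosphate and little or none in low phosphate. The median change of this difference was 0.20, and 75.2% of genes lay above 0. Its parts were a median change of 0.19 before the start and of -0.02 in the body. The number of calls was 369 without NoIP LP replicate 1 and 459 without NoIP LP replicate 2, and it was 1929 without NoIP HP replicate 2.

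The same shift was seen in the mean profile of 4022 protein-coding genes of at least 1000 bp, which is a description without a test. At 150 bp before the start the mean was 0.06 and 0.11 in NoIP LP, against -0.24 and -0.13 in NoIP HP. At 350 bp inside the gene the order was the reverse, with -0.21 and -0.18 in NoIP LP, against -0.10 and -0.05 in NoIP HP. The lowest point lay 350 and 450 bp inside the gene in the NoIP LP libraries and 50 bp inside it in both NoIP HP libraries. In the profile around the gene end the highest point lay 50 bp beyond the end in both NoIP LP libraries, against 250 and 50 bp inside the gene in the NoIP HP libraries. At 50 bp beyond the end the mean was 0.32 and 0.34 in NoIP LP, against 0.15 and 0.19 in NoIP HP.

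**Figure D3:**
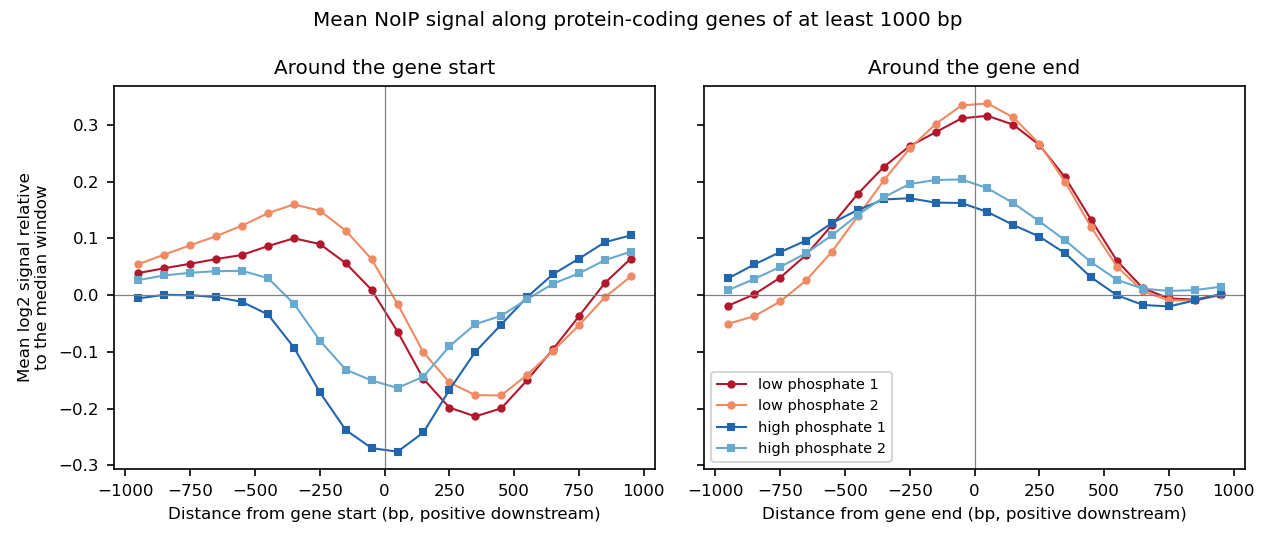
Mean log2 signal relative to the median window (vertical axis) in bins of 100 bp around the start and the end of protein-coding genes, against distance in bp, with 1 line per library, NoIP LP in red and NoIP HP in blue. Around the start the lowest point sits 350 and 450 bp inside the gene in NoIP LP and 50 bp inside it in NoIP HP, and just past the end the NoIP LP lines reach 0.32 and 0.34.

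By gene, the difference between upstream and body changed most at ssa2, where it was 1.16 and 1.25 in NoIP LP, against -1.22 and -0.85 in NoIP HP (change 2.24 ± 0.17, adjusted p = 9.89e-08). Both parts took a share, since the signal before the start changed by 0.81 and the body by -1.43. hsp90 (2.12 ± 0.19), pgk1 (2.05 ± 0.21), tdh1 (2.03 ± 0.25) and adh1 (1.88 ± 0.17) followed. tdh1, for glyceraldehyde-3-phosphate dehydrogenase, and adh1, for alcohol dehydrogenase, belong to glycolysis and fermentation. At adh1 the part before the start was 1.91 and 1.32 in NoIP LP, against 0.61 and 0.40 in NoIP HP, while its body was 1.15 and 0.56 in NoIP LP, against 1.84 and 1.40 in NoIP HP. At the gene level adh1 was not called (-0.17 ± 0.19). The cdc22 difference changed by 1.31 ± 0.16 and that of eng1 by 1.10 ± 0.23. At eng1 the body changed by -1.03 and the part before the start by 0.08.

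Of the 5 genes named for the opposite change, 3 lie where another gene starts: the sequence orphans SPCC191.06 and SPAC1786.04 and the dubious frame SPAC24B11.14. SPCC191.06 (-1.25 ± 0.25) overlaps the start of cyc1, for cytochrome c, whose own difference rose by 1.21 ± 0.18. SPAC24B11.14 (-1.06 ± 0.17) lies at the start of hem3, which rose by 1.69 ± 0.19. SPAC1786.04 (-0.88 ± 0.18) overlaps the start of plb2, a phospholipase B gene, which rose by 1.08 ± 0.16. In each such pair the body of the first gene covers the stretch before the second, and the body signal of the first changed by between 0.80 and 1.20. SPAC26F1.11 (-0.98 ± 0.20) and SPAC22F8.03c (-0.80 ± 0.17) had no such start within 500 bp. npp106, a nuclear pore gene whose start lies 567 bp past the end of ssa2, showed the reverse case: the signal before it changed by -0.88 and its body by -0.11 (difference -0.77 ± 0.18, adjusted p = 0.0036). gdh2 also had a lower difference (-0.68 ± 0.19), with changes of 0.82 before its start and 1.50 in its body.

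Gene lists were read next, each described by its counts beside the 2.21% and 0.362% of all gene IDs called higher and lower. Of 17 glycolysis and fermentation genes, pgk1 fell, eno102 rose and 15 did not pass, with a median change of -0.26, beside 0.03 over all gene IDs. In 10 of the 17 both NoIP LP libraries lay below both NoIP HP libraries, beside 19.8% of all gene IDs. tdh1 had 1.13 and 0.97 in NoIP LP, against 2.22 and 1.75 in NoIP HP (change -0.93 ± 0.22, adjusted p = 0.0993). eno101, for the main enolase, had 1.02 and 0.49 in NoIP LP, against 1.81 and 1.41 in NoIP HP (-0.86 ± 0.23, adjusted p = 0.124), while its paralogue eno102 rose (0.89 ± 0.13). Reads that the paralogues share could be split between them. tpi1, pyk1, pdc101, fba1 and gpm1 had values between -0.67 and -0.53, and none of these 5 passed. The measure of upstream minus body was called higher in 12 of the 17, beside 20.7% of all genes, with a median of 0.95.

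Of 19 heat shock and stress genes, ssa2 and hsp90 fell and 17 did not pass, and the median change was -0.13. In 8 of the 19 the NoIP LP libraries lay wholly below, beside 19.8% of all gene IDs. The endoplasmic reticulum Hsp70 gene bip1 (-0.66 ± 0.16), the Hsp70 gene ssa1 (-0.55 ± 0.12), hsp104 (-0.52 ± 0.11) and the mitochondrial hsp78 (-0.45 ± 0.10), both of the Clp disaggregase family, did not pass. ssa1 and ssa2 are close paralogues, and reads they share could be split between them. The small heat shock gene hsp9 stood on the other side, with 0.90 and 1.44 in NoIP LP, against 0.30 and 0.79 in NoIP HP (0.63 ± 0.24, adjusted p = 0.243). The list is therefore not uniform in direction: 15 of its genes lay below 0 and 4 above. Upstream minus body was called higher in 14 of the 19, beside 20.7% of all genes, and lower in 0.

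**Figure D4:**
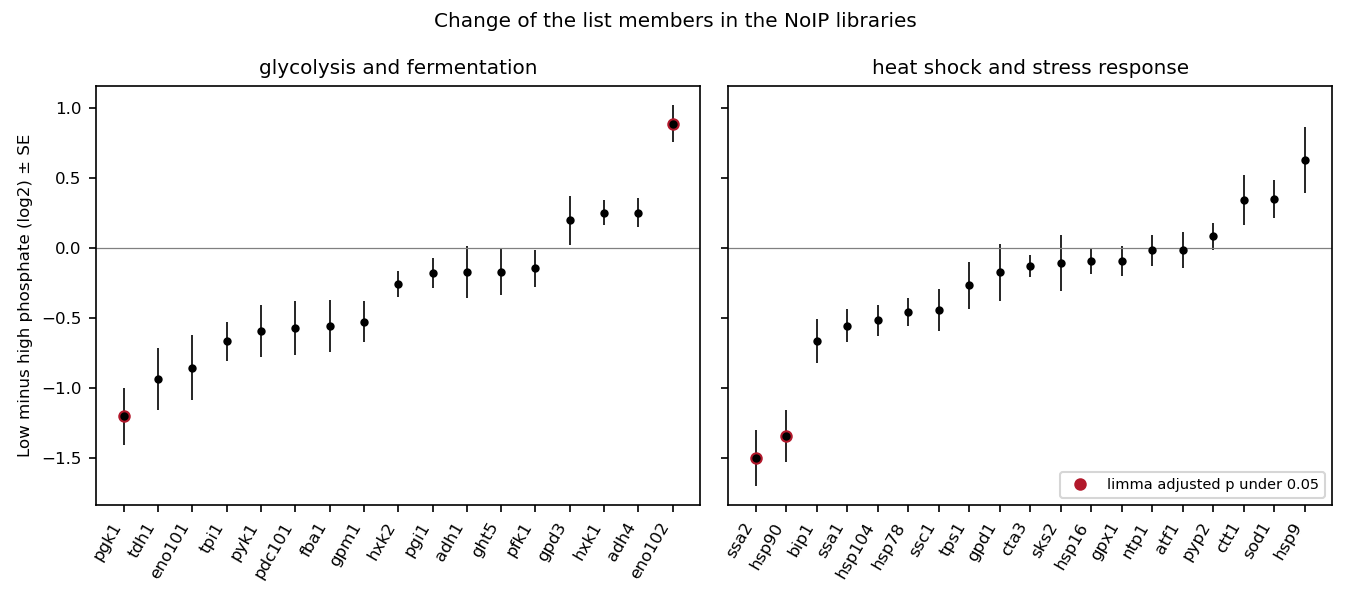
Change in log2 signal, NoIP LP minus NoIP HP (vertical axis, with the limma SE as bars), of the 17 glycolysis and fermentation genes (left) and the 19 heat shock and stress response genes (right), with red circles at genes past an adjusted p of 0.05. pgk1 (-1.20), ssa2 (-1.50) and hsp90 (-1.34) are the genes called below 0, and eno102 is the only one called above 0.

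Of 9 measured genes of phosphate acquisition and its regulators, 0 passed at gene level in limma and 1 of the 9 had an unadjusted p under 0.05, as did 1077 of all 6073 gene IDs. Among them, pho1, for the secreted acid phosphatase, had 1.02 and 0.60 in NoIP LP, against 0.26 in one and 0.27 in the other NoIP HP library (0.54 ± 0.15, limma adjusted p = 0.134). The 29 windows given to pho1 reach beyond its RefSeq span (II:4447506-4449053). pho84, for the phosphate transporter, had 1.03 and 0.25 in NoIP LP, against 0.37 and 0.23 in NoIP HP, so its NoIP LP replicates stood apart and the media overlapped (0.34 ± 0.24). tgp1, for a glycerophosphodiester transporter, had 0.16 and -0.22 in NoIP LP, against 0.02 and -0.16 in NoIP HP. Upstream minus body was called higher at 3 of the 9, beside 20.7% of all genes, which in so short a list does not set these genes apart. The 3 were pho4, for a thiamine-repressible phosphatase (change 1.03 ± 0.16), pho7, for the transcription factor (0.91 ± 0.17), and pho842 (0.78 ± 0.17). At pho7 the part before the start changed by 0.97 and the body by 0.06.

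The histone list of 8 genes held core histone genes and the histone variant gene pht1, and hta1 and hhf3 were not matched. This list, the list of 7 translation elongation factors and the list of 109 cytosolic ribosomal proteins held 0 gene IDs past the limma threshold. In limma 3, 0 and 9 of them had an unadjusted p under 0.05, as did 1077 of all 6073 gene IDs. hht1, for histone H3, had 0.00 and 0.04 in NoIP LP, against 0.46 and 0.61 in NoIP HP (-0.52 ± 0.10, adjusted p = 0.0570), while hht2, which encodes the same histone, had 1.37 and 1.15 in NoIP LP, against 1.24 and 0.95 in NoIP HP (0.17 ± 0.17). htb1 (-0.47 ± 0.13) and hhf1 (-0.38 ± 0.11) had the sign of hht1. Where a histone or elongation factor has several gene copies, these are nearly identical in their coding parts, and reads may be split between them. The medians were -0.07 for histones, -0.05 for elongation factors and 0.00 for ribosomal proteins. Without centring they came to 0.00, 0.03 and 0.08, and with quantile normalization to -0.19, -0.11 and -0.11, so no direction is given for these lists. Upstream minus body was called higher in 40 of the 109 ribosomal protein genes, with a median change of 0.53, in 3 of the 7 elongation factor genes (0.63) and in 2 of the 8 histone genes (0.26), and lower in 0 of them. Over all genes 20.7% were called higher and 0.635% lower, with a median change of 0.20. Among 82 meiotic genes 3 rose and 0 fell, with a median change of 0.02, and upstream minus body was called higher in 11 and lower in 2 of them (median 0.13).

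At gene level the 13 Tf2 retrotransposons, which are near-identical copies, moved with a single library. Their median was 0.81 and 0.24 in NoIP LP, against 1.59 and 0.04 in NoIP HP, so the NoIP HP replicates lay on either side of both NoIP LP libraries. The median change was -0.26, but 0.50 without NoIP HP replicate 1 and -1.03 without NoIP HP replicate 2. Upstream minus body was called higher in 13 of the 13, beside 20.7% of all genes, with a median change of 0.85, of 0.52 before the start and of -0.31 in the body. Reads may be split between such copies, so they are not separate measurements. The 24 centromeric RNAs showed the same order, with a mean of 0.63 and 0.21 in NoIP LP, against 1.11 and 0.17 in NoIP HP.

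The share of calls differed between classes of gene ID. Of 375 intergenic RNAs 59 rose (15.7%), as did 7 of 56 dubious open reading frames (12.5%), 16 of 237 other non-coding RNAs (6.75%), 13 of 458 antisense RNAs (2.84%) and 37 of 4672 protein-coding genes (0.792%), beside 2.21% of all. The calls that fell were 19 protein-coding genes and 3 antisense RNAs. The class means were given no test. Over 1094 non-coding RNAs the mean was 0.17 and 0.18 in NoIP LP, against -0.01 and 0.02 in NoIP HP, so the difference of 0.17 was far larger than that between replicates. Over the protein-coding class of 4728 gene IDs, dubious frames included, it was 0.05 in both NoIP LP libraries, against 0.02 and 0.04 in NoIP HP, and this small difference of 0.02 turned to -0.02 with quantile normalization.

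tRNA genes, which RNA polymerase III transcribes, and small nuclear RNA (snRNA) genes had a higher mean signal in NoIP LP. Over 166 tRNA gene IDs the mean was 1.71 and 1.37 in NoIP LP, against 1.16 and 0.85 in NoIP HP, a difference of 0.53 with replicates 0.34 and 0.31 apart. All 166 changes were above 0, and the media did not overlap in 122 of them (29.1% of all gene IDs did so in that direction). Calls were fewer: 2 of the 166 were called higher in limma (1.20%), a smaller share than the 2.21% of all gene IDs. The 7 snRNA genes, most of them for RNAs of the splicing machinery, had 1.46 and 1.23 in NoIP LP, against 0.87 and 0.80 in NoIP HP, without overlap in any of the 7. In limma 0 of them passed although all 7 had an unadjusted p under 0.05, as did 1077 of all 6073 gene IDs. Dispersed 5S rRNA genes overlapped, with a mean of 1.12 and 0.94 in NoIP LP, against 0.96 and 0.73 in NoIP HP. The 11 rRNA gene IDs of the rDNA repeats were lower, with 4.46 and 3.29 in NoIP LP, against 6.46 and 4.56 in NoIP HP. There the difference of -1.64 was no larger than the 1.90 between the NoIP HP replicates, and 0 of the 11 passed limma or had an unadjusted p under 0.05. The rDNA and tRNA genes are repeated, and the handling of reads with several matches is not given in the sources used here.

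**Figure D5:**
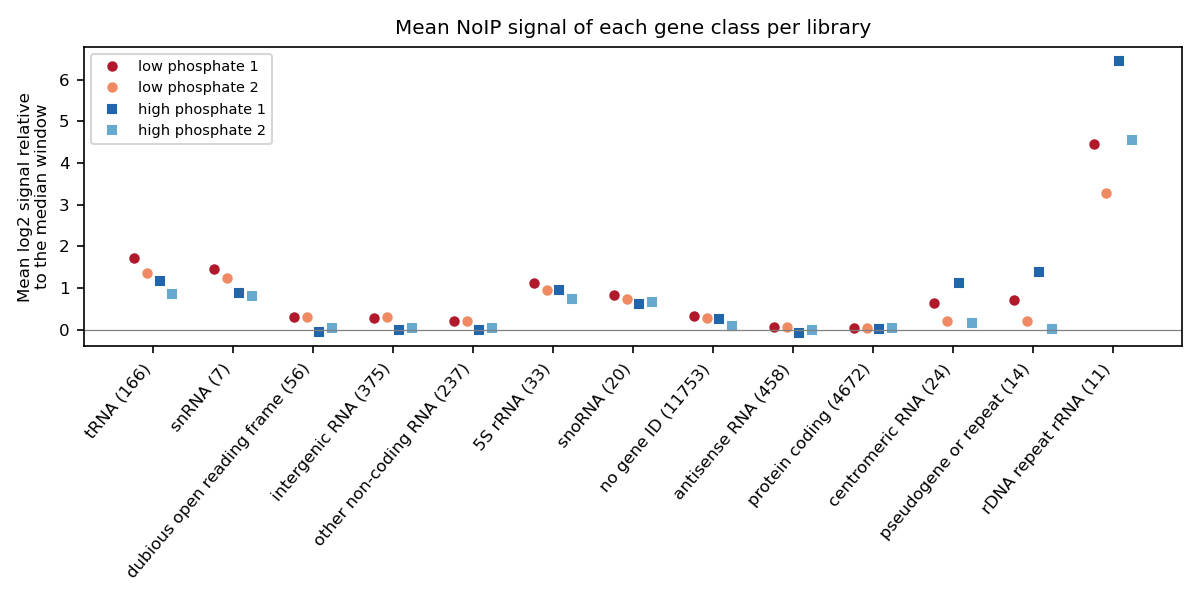
Mean log2 signal relative to the median window (vertical axis) of each class of gene ID in each library, NoIP LP as red circles and NoIP HP as blue squares, with the number of gene IDs (windows for the class without a gene ID) in brackets and classes ordered by NoIP LP minus NoIP HP. tRNA and snRNA genes lie higher in both NoIP LP libraries, and the NoIP HP replicates of the rDNA repeat rRNA, centromeric and repeat classes stand far apart.

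The base composition of windows moved with the change. The mean change was 0.12 in windows with 25 to 30% GC, 0.01 at 35 to 40% and -0.08 above 45%. Windows called lower had a mean GC content of 43.2%, windows called higher 36.1% and the rest 36.0%. After the median of each GC percentage had been taken out of each library, 169 gene IDs were called, 145 of them among the 156, and upstream minus body was called in 951 genes. Of these genes 898 were called higher and 53 lower, and the median change of upstream minus body was 0.14 instead of 0.20. For windows without a gene ID the difference between the media came to 0.077 instead of 0.143.

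ura4, for orotidine 5′-phosphate decarboxylase, had almost no signal in any NoIP library. If the smallest step is 1 read, its 13 windows held 5 and 13 reads in NoIP LP, against 15 and 94 in NoIP HP, summed over overlapping windows. These reads are too few for a fold change, and the log2 values of such windows are set by the pseudocount. Of the 13 windows, 12 and 11 stood at 0 in NoIP LP, against 5 and 0 in NoIP HP. A region of 2 windows (III:116001-116300) was nevertheless called, and the gene ID as a whole was not (adjusted p = 0.0591). In the Myo1-GFP libraries the same windows held 18, 19 and 6 reads in LP, against 12, 1517 and 9 in HP, so Myo1-GFP HP replicate 2, one of the deeper libraries, stood apart there. The labels name no ura4 allele.

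The change in NoIP libraries was last set against that in Myo1-GFP libraries, made from other cultures and sharing no control with them. A test of the difference between the 2 changes called 0 of 6073 gene IDs in limma (28 had an unadjusted p under 0.05), and with array weights it also called 0 (172 with such a p). With all 10 libraries in the fit, the NoIP change itself was called in 13 gene IDs, and with array weights in 322. The fit without weights could thus call little, and 0 calls do not show that the 2 changes were equal. Over all 6 Myo1-GFP libraries 131 of the 134 gene IDs that rose in NoIP lay above 0, 3 lay below it, and all 22 that fell lay below it, with medians of 0.54 for the risen and -0.50 for the fallen, where NoIP had 0.75 and -0.63. Of all 6073 gene IDs, 2791 lay above 0 and 3282 below it (median -0.02). Over the 4 deeper Myo1-GFP libraries, a choice made after seeing the data, all 134 lay above 0 and all 22 below it, with medians of 0.64 and -0.42. Of all 6073 gene IDs, 3319 then lay above 0 and 2754 below it (median 0.02). Without Myo1-GFP HP replicate 2, the library apart at ura4, the medians of the 134 and the 22 over the 3 remaining deeper libraries were 0.75 and -0.36. The 134 and the 22 still lay above and below 0, and of all 6073 gene IDs 3523 lay above 0 and 2550 below it (median 0.03). The test of the difference over the other 9 libraries called 0 gene IDs in limma (64 with an unadjusted p under 0.05). Across all gene IDs the changes correlated at r = 0.839 with those of the 4 deeper Myo1-GFP libraries and at r = 0.556 with those of all 6, in which replicate 3 of either medium was shallow, and gene IDs are not independent replicates. With the 3 deeper libraries r was 0.756. ssa2 changed by -0.92, pgk1 by -0.61 and gdh2 by 1.53 in the 4 deeper Myo1-GFP libraries, and by -0.73, -0.46 and 1.49 in the 3.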

How the data were processed

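Chromatin of fission yeast was sequenced in 10 libraries, of which the 4 NoIP libraries were compared here. The authors deposited a signal per 200 bp window. Per their methods, reads were aligned to ASM294v2 with TopHat and quantified in SeqMonk, and the submitters' processing notes also name Trim Galore 0.3.8 and Bowtie2 2.2.4. The scaling factor and the treatment of duplicate reads are not given in the sources used here. Within a library the values rise in whole steps of fixed size. Depths assume that this step is 1 read and cover counting error only, and at the median window they leave a relative SD from 6.07% to 12.5%.

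Signal was transformed as log2(value + 1), with the median of all windows subtracted per library, after windows with signal in fewer than 2 libraries had been left out. Window values were averaged per gene ID. Changes (NoIP LP minus NoIP HP) were tested, two-sided, with limma 3.58.1 in R 4.3.3 (lmFit, eBayes with trend, 1 mean per group), with Benjamini-Hochberg adjustment over all features and a threshold of 0.05. The code of the fit was checked on simulated data with independent noise of the same scale in every library. That setting differs from these libraries, so the check gives no error rate for them. Of 6073 gene IDs, 6011 (99.0%) were matched to RefSeq (ASM294v3), which gave symbols, positions and the sequences before genes. The comparison with Myo1-GFP used all 10 libraries.

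Members and lists were chosen with earlier results of these data known. Named were the 12 gene IDs per direction with the largest change among those past the threshold, with at least 3 windows and no overlap of the media, and likewise 5 regions and 5 genes for upstream minus body. Genes named beyond this rule are marked as such or belong to a list. Alternatives covered scaling, pseudocount, filters, libraries in the fit, weights, GC content, a replicate block and each library left out.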

Additional observations from a re-analysis of the deposited data

How the results depend on the processing

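The number of gene IDs past the threshold (156) moved with the processing. It was 411 without centring, 13 with all 10 libraries in the fit, 322 with all 10 libraries and array weights, 79 without a trend, 0 at an adjusted p under 0.01, and 526 with the 8 deeper libraries in the fit, an alternative chosen after seeing the data. Leaving out a library gave between 0 and 629 gene IDs. Windows past the threshold (3270) numbered 4911 without centring, 0 with all 10 libraries, 5425 with all 10 and array weights, 0 at an adjusted p under 0.01, 7412 with the 8 deeper libraries, and between 0 and 30232 with a library left out. Upstream minus body (1008 genes) ranged from 369 to 1929 with a library left out and was within 1.5 times that number under the other alternatives. The difference between NoIP and Myo1-GFP called 0 gene IDs in every fit that kept at least 2 libraries per group. These 0 calls do not show that the changes were equal.

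The labels give both media the replicate numbers 1 and 2 but do not say that a number marks a shared batch. At gene level the deviations of same-numbered libraries correlated at r = 0.50, from 2 pairs only. With a replicate block 995 gene IDs and 12144 windows were called, among them all 156 gene IDs and also pho1 and pho84 (adjusted p = 0.000211 and 0.0316), with the block and a GC correction 815 and 10311, and for the interaction 0.

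Class differences without a test moved by more than 1 SD of the replicates as follows. Without centring non-coding RNAs came to 0.25, protein-coding genes to 0.095, and snoRNAs with snRNAs to 0.32. With quantile normalization these were 0.14, -0.017 and 0.11. With medians over gene IDs they were 0.16, 0.0061 and 0.33, and rRNA came to 0.20. With the GC correction non-coding RNAs came to 0.14. With 2 libraries per medium, leaving out a library cannot by construction move a class difference by more than 1 SD of the replicates, so only ranges are given. The ranges were then 0.066 to 0.22 for windows without a gene ID, 0.16 to 0.19 for non-coding RNAs, 0.0099 to 0.030 for protein-coding genes, -0.94 to 0.44 for pseudogenes and repeats, -0.60 to 0.052 for rRNA, 0.18 to 0.31 for snoRNAs with snRNAs and 0.36 to 0.70 for tRNAs.

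Of the single genes and windows named, 4 values turned sign: tgp1 was -0.051 without NoIP HP replicate 2, -0.15 without NoIP LP replicate 1 and -0.12 with the median of the windows, and pho84 was -0.049 without NoIP LP replicate 1. With a library left out tgp1 ranged from -0.15 to 0.23 and pho84 from -0.049 to 0.73. The other values kept their direction, 1048 of them on the same side of the threshold, 184 no longer past it and 68 newly past it. The cause of these moves was not tested, and the depth of NoIP HP replicate 1 limits what a median window can show.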

Other observations

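Windows outside chromosomes I, II and III took no part in the comparison. The 195 mitochondrial windows averaged 2.39 and 1.67 in the NoIP LP libraries, against 2.30 and 1.72 in the NoIP HP libraries, on the scale of log2 signal relative to the nuclear median window, so the media overlapped. An unplaced contig of 200 windows averaged -0.14 and -0.11 in NoIP LP, against -0.14 and -0.17 in NoIP HP. The 202 windows of the separate mating-type contig averaged -5.08 and -5.62 in NoIP LP, against -5.01 and -5.73 in NoIP HP, values that rest on windows at 0.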
